A study of Mus musculus with 12 samples.

Results

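The genes described here are 33 members of the p53 pathway, taken by symbol from a fixed list. That list, like the others used below, was chosen with earlier results of these data known. It holds Trp53, which encodes p53, and the genes of its inhibitors Mdm2, Mdm4 and Ppm1d. It also holds genes known as transcriptional targets of p53 in growth arrest, cell death, DNA repair and metabolism. All 33 were found among the 24411 symbols of the count table. Of these, 30 had enough counts to be tested, and Eda2r, Gdf15 and Plk2 did not. RNA was sequenced from HoxB8 cells, which are mouse bone marrow progenitors held in an immature state by a Hoxb8 that needs estrogen to work. All groups were kept in RPMI with serum, stem cell factor and estrogen, and all had estrogen withdrawn for 24 h before lysis. Every population carried a pMIG and a pMICH vector. Empty/Empty held both vectors without an insert, Empty/T618I held CSF3R T618I in pMICH, Asxl1-MT2/Empty held a truncated Asxl1 (Asxl1-MT2) in pMIG, and Asxl1-MT2/T618I held both inserts. CSF3R is the receptor for granulocyte colony-stimulating factor, and T618I is a change in it known from neutrophilic leukaemia. Each group had 3 libraries, lettered A, B and C.

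Whether a population was a single clone is not given in the labels, and nothing in them says that the 3 libraries of a group were separate cultures. The p-values therefore rest on the spread among the 3 libraries of each group, and that spread may be technical. The library titled Empty/Empty 3 has a genotype label that names CSF3R T618I. Groups follow the titles here, and the column letter of that library is not known.

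p53 is a transcription factor that is made all the time and degraded quickly. Mdm2, a ubiquitin ligase, marks it for degradation, Mdm4 masks its activation domain, and the phosphatase encoded by Ppm1d removes the activating phosphates from it and from the kinases that signal DNA damage. Mdm2 and Ppm1d are themselves p53 targets, so that the pathway carries its own brake. In blood progenitors p53 is known for its part in radiation sensitivity and in holding stem cells quiescent. The amount of Trp53 mRNA is no measure of p53 activity, which is set mostly on the protein. Several listed genes answer to other signals as well: Btg2, Tob1, Plk2, Plk3, Gadd45a, Gadd45b, Gadd45g and Gdf15 are also known as growth factor or stress response genes.

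The promoters of 26 of the 33 members were in the RefSeq table (GRCm38.p6), as windows from 250 bases before to 50 bases after a transcription start. A gene can have several windows, with 32851 windows for 27025 genes, and was counted if any of them held a match. Windows of Rb1, Perp, Trp53inp1, Ddb2, Xpc, Rrm2b and Zmat3 were not used here. The p53 response element is known as a pair of decamers. A decamer that matches the p53 consensus, which reads the same on both strands, was in the windows of 9 of 26 members (34.6%): Trp53, Mdm2, Ppm1d, Ccng1, Gadd45a, Aen, Ei24, Polk and Sesn1. Over all genes of that table it was in a window of 2582 of 27025 (9.55%). A pair of such decamers with at most 13 bases between them was in 0 of 26 members and in 20 of all 27025 genes (0.074%), among them Cdkn1a, the best known p53 target. The cyclic AMP response element TGACGTCA, which also reads the same on both strands, was in the windows of Ppm1d, Btg2 and Plk2 (11.5% of 26), against 549 of all 27025 genes (2.03%). In Ppm1d, which holds both motifs, the matches do not overlap. These are matches of letters and not measured binding sites, and a window without a match says only that the letters are not in it.

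The following stretches are shown because they carry the matches nearest to the results below, with the match in capitals and each read 5′ to 3′ on the strand of its gene. Mdm2, Ccng1, Ppm1d and Sesn1 have a p53 decamer, Cdkn1a has the pair of decamers with its spacer, and Btg2, the member with the largest difference between the T618I effects, has the cyclic AMP response element.
Mdm2 (chr10:117710895-117710984, minus strand): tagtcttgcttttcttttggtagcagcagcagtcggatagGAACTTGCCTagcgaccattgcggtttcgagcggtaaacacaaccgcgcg
Ccng1 (chr11:40755422-40755511, minus strand): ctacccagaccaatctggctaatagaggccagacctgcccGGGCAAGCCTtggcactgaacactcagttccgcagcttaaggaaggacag
Ppm1d (chr11:85311082-85311171, plus strand): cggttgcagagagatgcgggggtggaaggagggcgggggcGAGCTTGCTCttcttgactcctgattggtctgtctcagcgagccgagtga
Sesn1 (chr10:41887226-41887315, plus strand): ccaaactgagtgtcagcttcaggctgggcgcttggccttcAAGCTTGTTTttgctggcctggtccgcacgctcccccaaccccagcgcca
Cdkn1a (chr17:29090876-29090967, plus strand): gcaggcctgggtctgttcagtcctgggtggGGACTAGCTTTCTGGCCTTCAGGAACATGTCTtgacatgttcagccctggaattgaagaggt
Btg2 (chr1:134079274-134079361, minus strand): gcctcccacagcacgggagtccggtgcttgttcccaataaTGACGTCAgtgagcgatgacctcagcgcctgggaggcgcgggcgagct

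Library totals ran from 9341984 to 10252291 counts, and the 33 members held 0.145% to 0.172% of them. Socs3, a feedback inhibitor induced by CSF3R signalling, was at 12.7 ± 0.972 and 10.7 ± 0.360 CPM (counts scaled to a common library total; SD, n = 3) in the groups without T618I, Empty/Empty first, against 165 ± 12.6 and 229 ± 34.0 with T618I. All 3 Empty/Empty libraries lay far below the T618I libraries for it. Asxl1 was at 119 ± 4.53 and 149 ± 16.9 CPM without Asxl1-MT2 and 1744 ± 79.8 and 1004 ± 83.7 with it. Whether construct reads were counted to Asxl1 and Csf3r is not given. The label of myeloid progenitors was checked on 9 neutrophil progenitor genes such as Mpo and Elane, whose summed level was 35327 to 44345 CPM in Empty/Empty, 16882 to 20083 in Empty/T618I, 39597 to 44239 in Asxl1-MT2/Empty and 14925 to 19724 in Asxl1-MT2/T618I. Of the 9, 8 fell with T618I alone and 7 with T618I in Asxl1-MT2 cells. These are 88.9% and 77.8% of the 9, where 15.9% and 22.8% of all tested genes were called lower.

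With T618I alone, that is, Empty/T618I against Empty/Empty, 14 of the 30 tested members rose and 2 fell. Those that rose included Mdm2, Ppm1d and Ccng1, growth arrest genes of the Btg, Plk and Gadd45 families, and the death receptor gene Fas. Sesn1 and Xpc fell. A member was called at an adjusted p under 0.05 in the quasi-likelihood test of edgeR, adjusted over all 11578 tested genes, of which 17.6% were called higher and 15.9% lower. The median log2 fold change of the members was 0.14, against 0.00365 for all tested genes. When an Empty/Empty library (A, B and C in turn) was moved to the Empty/T618I group, to follow the disputed genotype label, edgeR called 0, 0 and 5 members (13, 13 and 14 at an unadjusted p under 0.05), and DESeq2 called 5, 3 and 11. For Socs3, as given above, every Empty/Empty library lay far below the T618I libraries.

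With T618I in cells that also carried Asxl1-MT2 (Asxl1-MT2/T618I against Asxl1-MT2/Empty), 14 of 30 members rose and 3 fell, where 26.9% of all tested genes were called higher and 22.8% lower. The median was 0.40 for the members and -0.0153 for all genes. These libraries are not shared with the first comparison. In both backgrounds 10 members rose, namely Mdm2, Ccng1, Btg2, Plk3, Gadd45a, Gadd45g, Fas, Phlda3, Trp53inp1 and Zmat3, and Sesn1 fell in both. Ppm1d, Apaf1, Aen and Ercc5 passed as higher and Xpc as lower with T618I alone. Tob1, Rb1, Perp and Rrm2b passed as higher and Tigar and Fdxr as lower in the Asxl1-MT2 background. Of these 11 members with a call in a single background, the difference between the backgrounds itself passed for Tob1 and Perp. No member rose in one background and fell in the other.

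With Asxl1-MT2 alone (Asxl1-MT2/Empty against Empty/Empty), 0 of 30 members rose and 1, Perp, fell, where 1.24% of all tested genes were called higher and 0.622% lower. At an unadjusted p under 0.05, edgeR had 2 members higher and 2 lower. DESeq2, at an adjusted p under 0.05, called 0 higher and 1 lower. With Asxl1-MT2 added to T618I (Asxl1-MT2/T618I against Empty/T618I), 11 members rose and 1, Aen, fell, where 25.4% of all tested genes were higher and 18.5% lower. The 11 were Mdm2, Btg2, Tob1, Gadd45a, Gadd45b, Gadd45g, Rb1, Fas, Trp53inp1, Ddb2 and Xpc. The median was 0.08 for the members and 0.0105 for all genes. This split depends on the scaling. On library totals with no scaling factor, which moved the median of all genes to -0.116, 9 members were called higher and 8 lower, and the median of the members was -0.0445. Mdm2 and Ddb2 then did not pass, and Trp53, Ppm1d, Ccng1, Polk, Ercc5, Fdxr and Zmat3 were called lower. For T618I in the Asxl1-MT2 background the same setting moved the median of all genes to -0.121 and gave 13 members higher and 5 lower.

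The interaction, which is the T618I effect in Asxl1-MT2 cells minus the T618I effect without it, was positive and passed for 6 of 30 members: Btg2, Trp53inp1, Tob1, Perp, Gadd45a and Ddb2. It was negative and passed for 0, where 14.1% of all tested genes were called with a positive and 5.51% with a negative interaction. At an unadjusted p under 0.05, edgeR had 1 member with a negative interaction. DESeq2, at an adjusted p under 0.05, called 0 negative. On library totals 5 members were called positive and 1, Fdxr, negative. By role, 3 of the 6 belong to growth arrest, 2 to cell death and 1 to DNA repair.

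**Figure D1:**
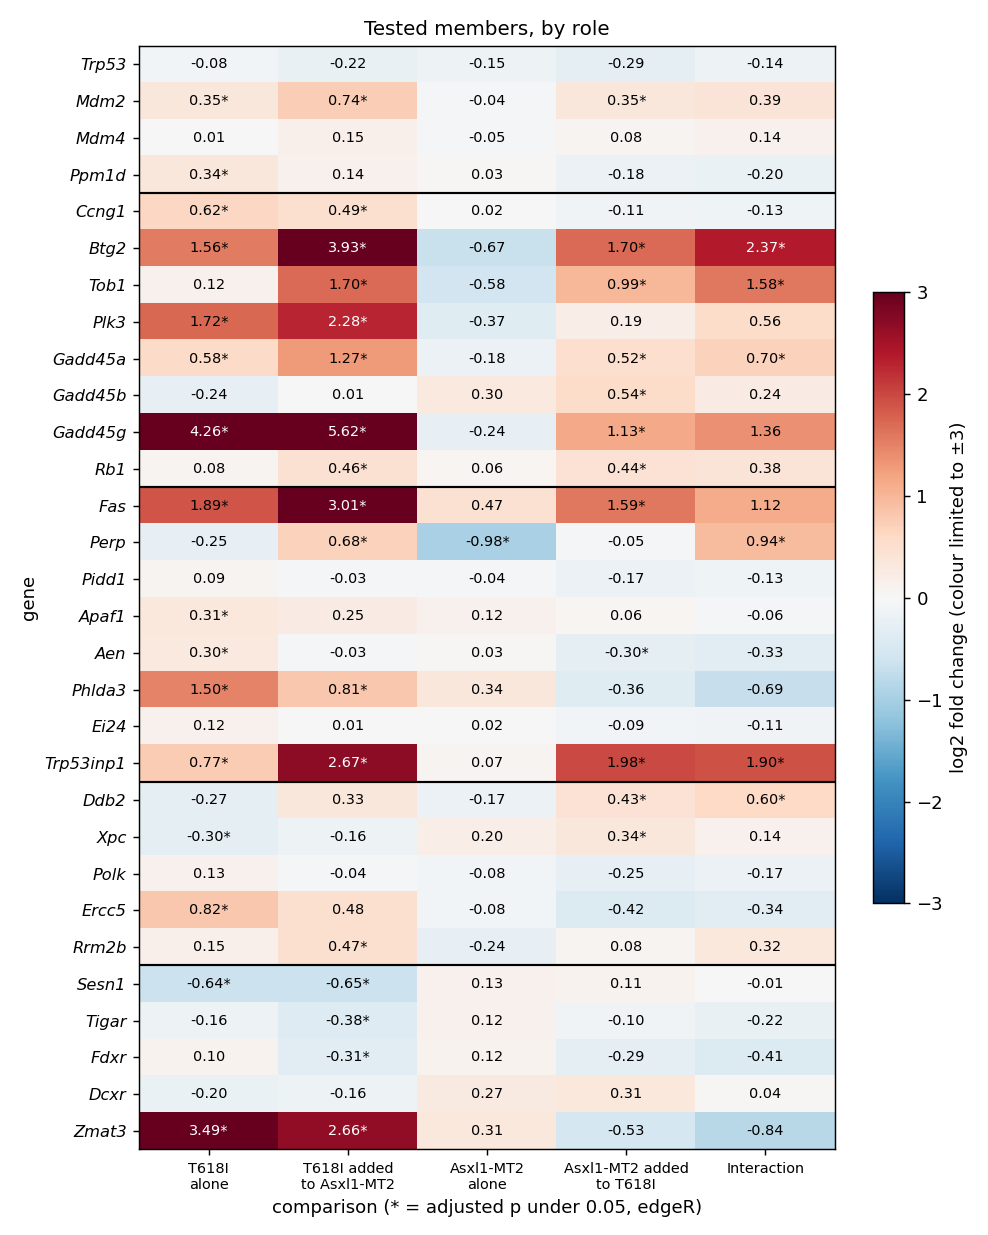
Log2 fold change of each of the 30 tested members (rows, grouped by role between the lines) in the 4 comparisons and the interaction (columns), with the colour scale limited to ±3 and an asterisk at an adjusted p under 0.05 in edgeR. The columns for T618I hold most of the asterisks, and the column for Asxl1-MT2 alone holds 1, at Perp.

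Trp53 (chromosome 11, 69580359 to 69591873, GRCm38, as are all gene positions here) had the highest level per kilobase of exon among the 33 members in every group, at 74.4 CPM per kb in Empty/Empty and 57.4 in Asxl1-MT2/T618I. Its level was 346, 324 and 234 CPM in Empty/Empty libraries A, B and C, 300.2, 288 and 266 in Empty/T618I, 267, 289 and 257 in Asxl1-MT2/Empty and 205, 244 and 248 in Asxl1-MT2/T618I. The Asxl1-MT2/T618I libraries lay below all Empty/T618I and all Asxl1-MT2/Empty libraries, and the Empty/Empty libraries spread over the range of the other groups. The gene passed in none of the comparisons, with a log2 fold change of -0.29 ± 0.118 (SE; adjusted p = 0.0523, edgeR) for Asxl1-MT2 added to T618I. That value was close to the threshold: it was called lower under several other settings, among them DESeq2, no low-count filter, library totals, a fit of only the groups compared, and leaving out any of Empty/Empty A, B or C, Empty/T618I C or Asxl1-MT2/T618I C. For T618I alone it was -0.08 ± 0.117, with a 95% interval of -0.33 to 0.17.

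Mdm2 (chromosome 10, 117688875 to 117710758) was at 59.7, 60.0 and 68.6 CPM in Empty/Empty libraries A, B and C, 83.8, 70.7 and 85.2 in Empty/T618I, 66.6, 54.6 and 61.8 in Asxl1-MT2/Empty and 109, 99.1 and 97.3 in Asxl1-MT2/T618I. Its 3 Asxl1-MT2/T618I libraries were the highest, its 3 Empty/T618I libraries came next, and the groups without T618I overlapped. It rose by 0.35 ± 0.0983 on the log2 scale with T618I alone (adjusted p = 0.0110, edgeR) and by 0.74 ± 0.0980 in the Asxl1-MT2 background (adjusted p = 8.00e-06). The interaction of 0.39 ± 0.139 did not pass (adjusted p = 0.0567), but did so when Asxl1-MT2/Empty library A was left out. The call for Asxl1-MT2 added to T618I (0.35 ± 0.0967, adjusted p = 0.00746) was lost without Empty/T618I library B, at an edgeR adjusted p of 0.0595.

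Of the other inhibitors, Ppm1d (chromosome 11, 85311244 to 85347066) rose with T618I alone by 0.34 ± 0.0974 on the log2 scale, and its levels were 29.2 to 37.3 CPM in Empty/Empty, 39.99 to 44.8 in Empty/T618I, 33.5 to 35.5 in Asxl1-MT2/Empty and 37.3 to 39.2 in Asxl1-MT2/T618I. In the Asxl1-MT2 background its log2 fold change was 0.14 ± 0.0982, which did not pass. Mdm4 was at 144 to 169.7 CPM in Empty/Empty, 152 to 158 in Empty/T618I, 141 to 155 in Asxl1-MT2/Empty and 158 to 172 in Asxl1-MT2/T618I, and no comparison of it passed, with log2 fold changes between -0.05 and 0.15. Of these 4 genes, Mdm2 and Ppm1d were called in at least 1 comparison. Mdm4 was called in none, nor was Trp53, which was close to the threshold. With T618I alone 50% of the 4 were called, with T618I in Asxl1-MT2 cells 25%, and with Asxl1-MT2 added to T618I 25%. Of all tested genes, 33.5%, 49.8% and 43.9% were called in these comparisons.

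Most growth arrest genes rose with T618I. Of 8 tested, 5 rose with T618I alone, where Tob1, Rb1 and Gadd45b did not pass, at 0.12 ± 0.160, 0.08 ± 0.0992 and -0.24 ± 0.125. With T618I in Asxl1-MT2 cells 7 rose and Gadd45b, at 0.01 ± 0.120, did not pass, and 6 rose when Asxl1-MT2 was added to T618I. These are 62.5%, 87.5% and 75% of the 8, where 17.6%, 26.9% and 25.4% of all tested genes were called higher. None of the 8 fell in these comparisons, although Ccng1 was called lower on library totals when Asxl1-MT2 was added. Their summed level was 255 to 279 CPM in Empty/Empty, 357 to 417 in Empty/T618I, 258 to 284 in Asxl1-MT2/Empty and 413 to 503 in Asxl1-MT2/T618I. The groups with T618I lay above those without it, while Empty/T618I and Asxl1-MT2/T618I overlapped slightly.

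Btg2 (chromosome 1, 134075170 to 134079120), an antiproliferative gene that acts through the deadenylation of mRNA, was at 3.22, 2.49 and 2.68 CPM in Empty/Empty libraries A, B and C, 10.6, 6.68 and 7.51 in Empty/T618I, 2.08, 1.18 and 2.00 in Asxl1-MT2/Empty and 29.4, 31.1 and 20.1 in Asxl1-MT2/T618I. Every Asxl1-MT2/T618I library lay above every Empty/T618I library, these lay above Empty/Empty, and the Asxl1-MT2/Empty libraries were the lowest. It rose by 1.56 ± 0.249 on the log2 scale with T618I alone and by 3.93 ± 0.244 in the Asxl1-MT2 background (adjusted p = 6.49e-10, edgeR). The interaction was 2.37 ± 0.373 (adjusted p = 0.000283). Asxl1-MT2 alone gave -0.67 ± 0.318, which did not pass (adjusted p = 0.460).

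Tob1 (chromosome 11, 94211454 to 94215495), of the same protein family as Btg2, was at 10.27, 11.5 and 7.84 CPM in Empty/Empty libraries A, B and C, 10.6, 10.9 and 10.9 in Empty/T618I, 6.62, 6.22 and 6.99 in Asxl1-MT2/Empty and 25.7, 19.5 and 19.2 in Asxl1-MT2/T618I. Empty/Empty and Empty/T618I overlapped, Asxl1-MT2/Empty lay below both, and Asxl1-MT2/T618I lay above all other libraries. Its log2 fold change was 0.12 ± 0.160 with T618I alone, which did not pass, against 1.70 ± 0.159 in the Asxl1-MT2 background (adjusted p = 1.21e-07, edgeR), and the interaction was 1.58 ± 0.226 (adjusted p = 0.000135). Asxl1-MT2 alone gave -0.58 ± 0.170 (adjusted p = 0.106), and this value was called lower without Empty/Empty library C.

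The Gadd45 genes, which encode small stress sensors that bind cell cycle and MAP kinase partners, differed from each other. Gadd45a (chromosome 6, 67035096 to 67037457), the member of the family best known as a p53 target, was at 24.4, 25.5 and 28.5 CPM in Empty/Empty libraries A, B and C, 40.5, 37.5 and 39.0 in Empty/T618I, 21.7, 25.7 and 21.8 in Asxl1-MT2/Empty and 64.0, 56.3 and 47.0 in Asxl1-MT2/T618I. Both T618I groups stood above the rest, with Asxl1-MT2/T618I on top and without overlap. It rose by 0.58 ± 0.117 with T618I alone and 1.27 ± 0.116 in Asxl1-MT2 cells (adjusted p = 8.53e-08, edgeR), and the interaction was 0.70 ± 0.164 (adjusted p = 0.00672).

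Gadd45g (chromosome 13, 51846678 to 51848468) was close to 0 without T618I, with 7 counts over the 3 Empty/Empty libraries and 6 over the 3 Asxl1-MT2/Empty libraries. Its level was 0.101, 0.0994 and 0.516 CPM in Empty/Empty libraries A, B and C, 5.58, 4.58 and 4.07 in Empty/T618I, 0.297, 0.296 and 0 in Asxl1-MT2/Empty and 13.7, 9.61 and 7.85 in Asxl1-MT2/T618I. No library without T618I came near those with it, and Asxl1-MT2/T618I lay above Empty/T618I in every library. Its log2 fold changes were the largest of all members, 4.26 ± 0.488 with T618I alone (adjusted p = 2.63e-06, edgeR) and 5.62 ± 0.454 in Asxl1-MT2 cells, but rest on those few counts. Without Empty/Empty library C, which held 5 of the 7 counts, the value with T618I alone was 5.42. Asxl1-MT2 added to T618I gave 1.13 ± 0.270 (adjusted p = 0.00286).

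Gadd45b (chromosome 10, 80930073 to 80932204), a gene more often linked to NF-kB and TGF-beta signals, was at 28.5, 22.2 and 27.8 CPM in Empty/Empty libraries A, B and C, 24.6, 21.4 and 20.6 in Empty/T618I, 32.1, 36.4 and 27.8 in Asxl1-MT2/Empty and 32.3, 33.8 and 30.7 in Asxl1-MT2/T618I. Its Empty/T618I libraries were the lowest as a group, although they overlapped Empty/Empty, and both Asxl1-MT2 groups overlapped. T618I gave -0.24 ± 0.125 alone and 0.01 ± 0.120 in Asxl1-MT2 cells, and neither passed. Asxl1-MT2 added to T618I gave 0.54 ± 0.123 (adjusted p = 0.00199, edgeR).

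Plk3 (chromosome 4, 117128655 to 117133963), a Polo-like kinase gene of the stress response, was at 8.86, 11.03 and 8.56 CPM in Empty/Empty libraries A, B and C, 35.1, 25.9 and 33.1 in Empty/T618I, 8.01, 6.61 and 7.49 in Asxl1-MT2/Empty and 45.1, 35.7 and 26.5 in Asxl1-MT2/T618I. All 6 T618I libraries lay well above the 6 others, and both T618I groups overlapped. It rose by 1.72 ± 0.182 with T618I alone (adjusted p = 1.01e-06, edgeR) and by 2.28 ± 0.187 in Asxl1-MT2 cells, and the interaction of 0.56 ± 0.264 did not pass. The related Plk2 was not tested, with 5 counts summed over the Empty/Empty libraries, 8 over Empty/T618I, 1 over Asxl1-MT2/Empty and 7 over Asxl1-MT2/T618I.

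Ccng1 (chromosome 11, 40748552 to 40755311), which encodes cyclin G1, a long known p53 target that recruits a phosphatase to Mdm2, came next after Trp53 in level per kilobase in each group. It was at 126 to 149 CPM in Empty/Empty, 195 to 234 in Empty/T618I, 129 to 158 in Asxl1-MT2/Empty and 186 to 207 in Asxl1-MT2/T618I, so that the T618I libraries lay above those without it. It rose by 0.62 ± 0.0967 with T618I alone (adjusted p = 7.43e-05, edgeR) and by 0.49 ± 0.0967 in Asxl1-MT2 cells, with an interaction of -0.13 ± 0.136 (95% interval -0.42 to 0.16). Rb1, which encodes the retinoblastoma protein that holds cells before S phase, was at 54.0 to 56.5 CPM in Empty/Empty, 52.0 to 67.6 in Empty/T618I, 52.9 to 59.8 in Asxl1-MT2/Empty and 75.5 to 85.3 in Asxl1-MT2/T618I. It rose with T618I in Asxl1-MT2 cells by 0.46 ± 0.0979 and when Asxl1-MT2 was added to T618I by 0.44 ± 0.0978, while T618I alone gave 0.08 ± 0.0992. The interaction of Rb1 did not pass (adjusted p = 0.0659).

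**Figure D2:**
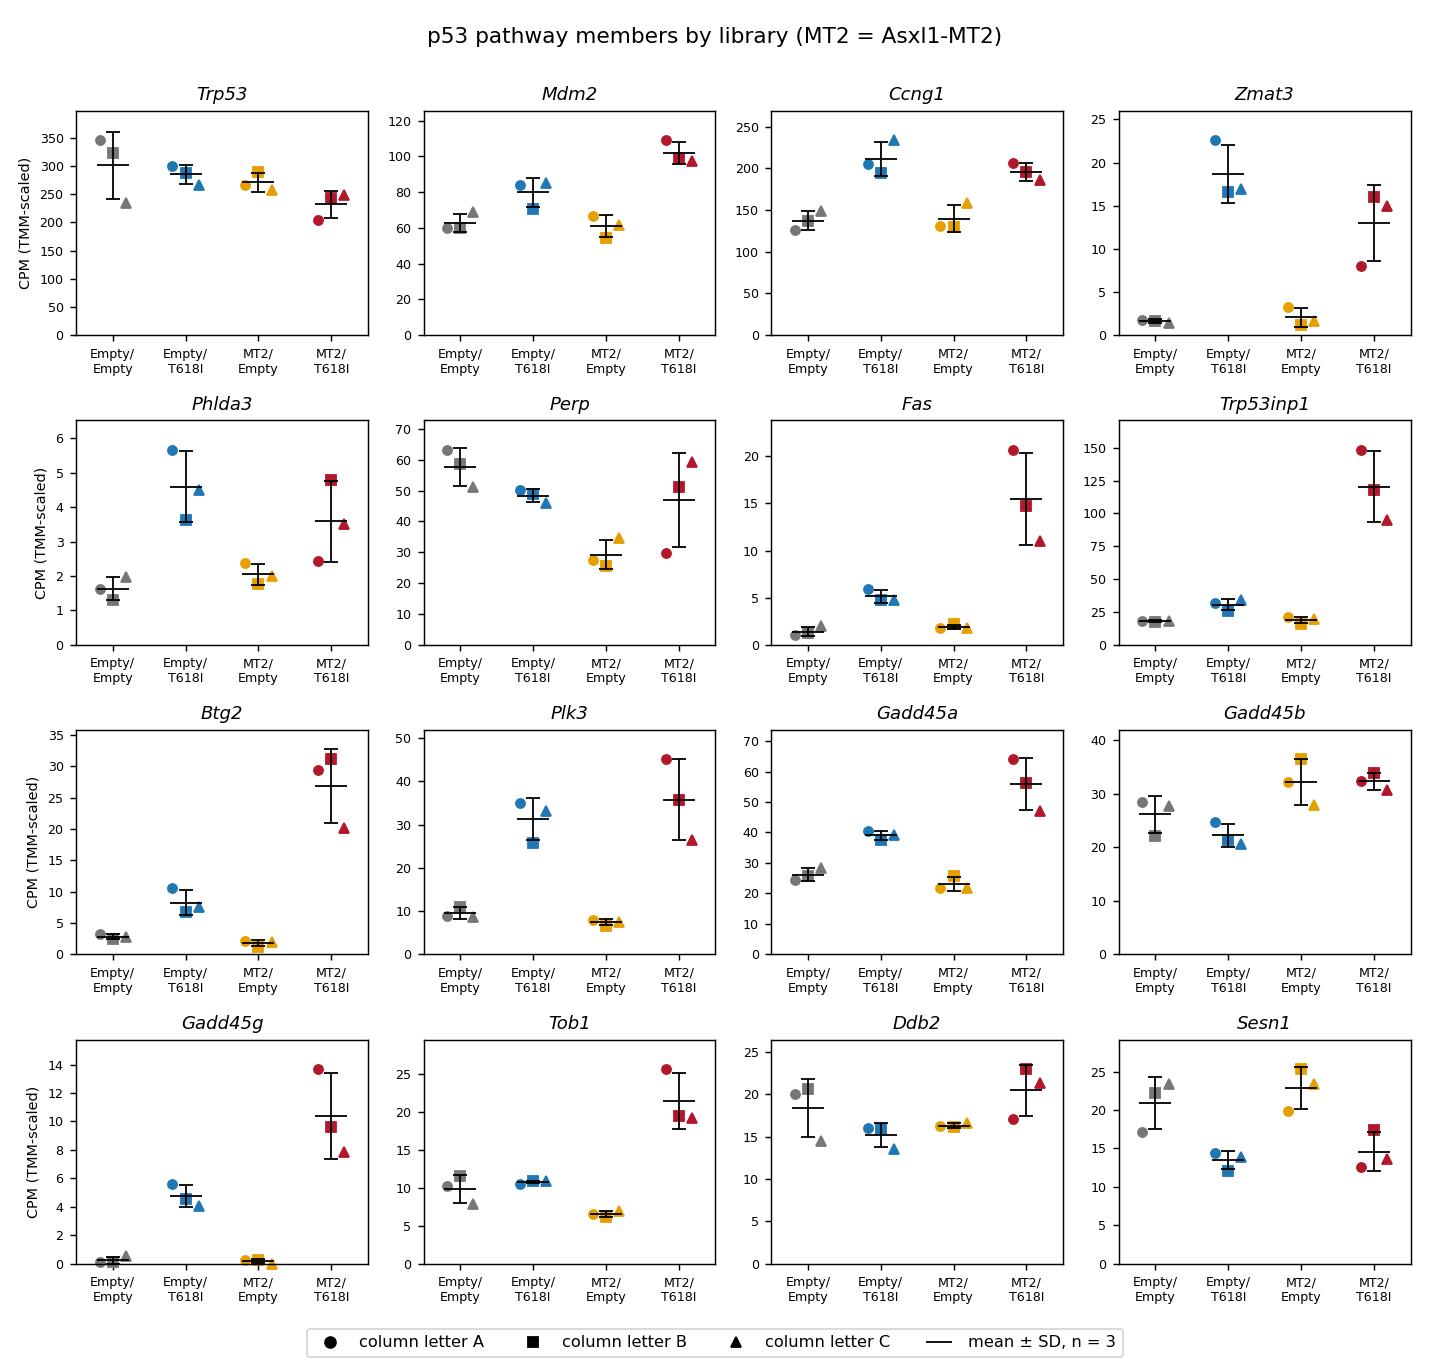
Level in CPM (vertical axes, linear and from 0) of 16 members, by group (horizontal axes, MT2 for Asxl1-MT2), with 1 marker for each of the 3 libraries and bars for the mean ± SD. Btg2, Tob1, Trp53inp1, Gadd45a, Gadd45g and Fas are highest in Asxl1-MT2/T618I, while Zmat3 and Phlda3 have their highest mean in Empty/T618I.

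Among 8 tested cell death genes, 5 rose with T618I alone, 4 rose with T618I in Asxl1-MT2 cells, and 2 rose and 1 fell when Asxl1-MT2 was added to T618I. In either direction 62.5%, 50% and 37.5% of the 8 were called, against 33.5%, 49.8% and 43.9% of all tested genes. The first share stood above that of all genes, the second was close to it and the third was below it. Of all tested genes, 17.6%, 26.9% and 25.4% were called higher, beside 5, 4 and 2 of the 8. Their summed level was 388 to 395 CPM in Empty/Empty, 453 to 462 in Empty/T618I, 368 to 390 in Asxl1-MT2/Empty and 523 to 556 in Asxl1-MT2/T618I, and the T618I groups stood above the others without overlap.

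Fas (chromosome 19, 34290666 to 34327772), the death receptor of the tumour necrosis factor receptor family, was at 1.01, 1.19 and 1.96 CPM in Empty/Empty libraries A, B and C, 5.96, 4.77 and 4.70 in Empty/T618I, 1.78, 2.17 and 1.80 in Asxl1-MT2/Empty and 20.7, 14.7 and 11.1 in Asxl1-MT2/T618I. Its level was low without T618I, higher in every Empty/T618I library and highest in every Asxl1-MT2/T618I library. It rose by 1.89 ± 0.305 with T618I alone (adjusted p = 0.000109, edgeR), by 3.01 ± 0.258 in Asxl1-MT2 cells, and by 1.59 ± 0.223 when Asxl1-MT2 was added to T618I (adjusted p = 2.40e-05). The interaction of 1.12 ± 0.430 did not pass (adjusted p = 0.0774). Eda2r, a further receptor of this family, had 1, 7, 0 and 3 summed counts in the 4 groups, in the order given for Plk2, and was not tested.

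Trp53inp1 (chromosome 4, 11156431 to 11174379), a nuclear protein gene that promotes p53 phosphorylation and autophagy, was at 18.1, 17.2 and 18.4 CPM in Empty/Empty libraries A, B and C, 31.5, 25.9 and 34.3 in Empty/T618I, 21.2, 16.1 and 19.3 in Asxl1-MT2/Empty and 148, 118 and 94.8 in Asxl1-MT2/T618I. The Empty/T618I libraries lay moderately above those without T618I, and the Asxl1-MT2/T618I libraries far above all others. It rose by 0.77 ± 0.159 with T618I alone and by 2.67 ± 0.152 in Asxl1-MT2 cells (adjusted p = 2.03e-10, edgeR). The interaction was 1.90 ± 0.219 (adjusted p = 2.36e-05), and its p was the smallest of any member in that test.

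Perp (chromosome 10, 18845020 to 18857073), a membrane protein gene of desmosomes and p53-dependent death, was the member that fell with Asxl1-MT2 alone. It was at 63.2, 58.6 and 51.1 CPM in Empty/Empty libraries A, B and C, 50.1, 48.9 and 46.0 in Empty/T618I, 27.5, 25.5 and 34.5 in Asxl1-MT2/Empty and 29.8, 51.3 and 59.3 in Asxl1-MT2/T618I. All Asxl1-MT2/Empty libraries lay below both groups without Asxl1-MT2, and Asxl1-MT2/T618I library A lay near them while its libraries B and C lay near the level of Empty/Empty. It fell by 0.98 ± 0.180 on the log2 scale with Asxl1-MT2 alone (adjusted p = 0.00781, edgeR), and this call was lost without Asxl1-MT2/Empty library A or B, at an adjusted p of up to 0.0583. T618I gave -0.25 ± 0.174 alone, which did not pass, and 0.68 ± 0.182 in Asxl1-MT2 cells (adjusted p = 0.00503), with an interaction of 0.94 ± 0.252 (adjusted p = 0.0146).

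Phlda3 (chromosome 1, 135766119 to 135769136), an inhibitor of Akt, was at 1.61, 1.29 and 1.96 CPM in Empty/Empty libraries A, B and C, 5.67, 3.63 and 4.49 in Empty/T618I, 2.37, 1.78 and 2.00 in Asxl1-MT2/Empty and 2.44, 4.80 and 3.51 in Asxl1-MT2/T618I. All Empty/T618I libraries lay above all libraries without T618I, and Asxl1-MT2/T618I library A stood only just above the highest Asxl1-MT2/Empty library. It rose by 1.499 ± 0.291 with T618I alone (adjusted p = 0.000605, edgeR). The call in Asxl1-MT2 cells (0.81 ± 0.289, adjusted p = 0.0290) was lost without Asxl1-MT2/Empty library B or C or Asxl1-MT2/T618I library B (edgeR adjusted p up to 0.172), in DESeq2 and on library totals.

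Apaf1, the scaffold of the apoptosome, was at 119.9 to 162 CPM in Empty/Empty, 163 to 195 in Empty/T618I, 149 to 168 in Asxl1-MT2/Empty and 180.0 to 196 in Asxl1-MT2/T618I, and rose with T618I alone by 0.31 ± 0.102. That call was lost without Empty/Empty library A or Empty/T618I library C, at an edgeR adjusted p of up to 0.151. Aen, an exonuclease gene, was at 39.3 to 44.4 CPM in Empty/Empty, 44.7 to 55.8 in Empty/T618I, 41.3 to 44.2 in Asxl1-MT2/Empty and 36.9 to 48.7 in Asxl1-MT2/T618I, and had 0.30 ± 0.110 with T618I alone and -0.30 ± 0.110 when Asxl1-MT2 was added. The call with T618I alone was lost in 8 of the 12 fits with a library left out, those of all Empty/Empty and Asxl1-MT2/Empty libraries and of Empty/T618I A and B (edgeR adjusted p up to 0.148). The other call was lost without Empty/T618I A or B or Asxl1-MT2/T618I A or C (edgeR adjusted p up to 0.161). Pidd1, which activates caspase-2, and Ei24, an endoplasmic reticulum protein gene, passed in no comparison and had log2 fold changes between -0.17 and 0.12.

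DNA repair genes were mixed. Of 5 tested, 1 rose and 1 fell with T618I alone, 1 rose with T618I in Asxl1-MT2 cells, and 2 rose when Asxl1-MT2 was added to T618I. These are 40%, 20% and 40% of the 5, against 33.5%, 49.8% and 43.9% of all tested genes. Ddb2 (chromosome 2, 91211572 to 91236982), the damage-sensing subunit of the UV-DDB complex, was at 20.03, 20.6 and 14.4 CPM in Empty/Empty libraries A, B and C, 16.1, 15.9 and 13.6 in Empty/T618I, 16.2, 16.1 and 16.6 in Asxl1-MT2/Empty and 17.1, 23.0 and 21.3 in Asxl1-MT2/T618I. Asxl1-MT2/T618I lay above Empty/T618I and above Asxl1-MT2/Empty, while Empty/Empty spread over much of the range. Neither T618I effect passed, at -0.27 ± 0.146 and 0.33 ± 0.145. Asxl1-MT2 added to T618I gave 0.43 ± 0.145 (adjusted p = 0.0243, edgeR), which was lost without Empty/T618I C or Asxl1-MT2/T618I B or C (edgeR adjusted p up to 0.138). The interaction of 0.60 ± 0.206 (adjusted p = 0.0490) was lost when any of 10 of the 12 libraries was left out, all but Empty/Empty C and Asxl1-MT2/T618I A (edgeR adjusted p up to 0.143).

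Xpc, a damage sensor of global nucleotide excision repair, was at 108 to 119 CPM in Empty/Empty, 88.5 to 95.8 in Empty/T618I, 122 to 144 in Asxl1-MT2/Empty and 108 to 128 in Asxl1-MT2/T618I. It fell by 0.30 ± 0.0856 on the log2 scale with T618I alone, a call lost without Empty/T618I library B (edgeR adjusted p = 0.0612), and rose by 0.34 ± 0.0856 when Asxl1-MT2 was added to T618I (adjusted p = 0.00381). Ercc5, the endonuclease that cuts beside the lesion in the same pathway, was at 4.83 to 6.29 CPM in Empty/Empty, 8.49 to 11.5 in Empty/T618I, 4.19 to 6.22 in Asxl1-MT2/Empty and 6.26 to 8.99 in Asxl1-MT2/T618I, and rose with T618I alone by 0.82 ± 0.192 (adjusted p = 0.00294, edgeR). In Asxl1-MT2 cells its 0.48 ± 0.200 did not pass (adjusted p = 0.0555). Rrm2b, the p53-induced subunit of ribonucleotide reductase, was at 12.3 to 15.5 CPM in Empty/Empty, 15.2 to 15.5 in Empty/T618I, 11.3 to 12.2 in Asxl1-MT2/Empty and 14.01 to 17.9 in Asxl1-MT2/T618I, and rose with T618I in Asxl1-MT2 cells by 0.47 ± 0.128 (adjusted p = 0.00570). Polk, a translesion polymerase gene, passed in no comparison.

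Of 5 tested genes of metabolism and RNA binding, 1 rose and 1 fell with T618I alone, and 1 rose and 3 fell with T618I in Asxl1-MT2 cells, which is 40% and 80% of the 5 against 33.5% and 49.8% of all tested genes. Zmat3 (chromosome 3, 32334792 to 32366014), an RNA-binding zinc finger protein gene and p53 target that acts on splicing, was at 1.81, 1.69 and 1.44 CPM in Empty/Empty libraries A, B and C, 22.6, 16.6 and 16.9 in Empty/T618I, 3.26, 1.18 and 1.70 in Asxl1-MT2/Empty and 7.96, 16.0 and 14.98 in Asxl1-MT2/T618I. The T618I libraries stood above all those without it. Within Asxl1-MT2/T618I, library A was well below libraries B and C, and all 3 lay below every Empty/T618I library. It rose by 3.49 ± 0.310 with T618I alone (adjusted p = 1.26e-07, edgeR), the smallest p of the members in that comparison, and by 2.66 ± 0.307 in Asxl1-MT2 cells (adjusted p = 1.62e-06). Asxl1-MT2 added to T618I gave -0.53 ± 0.233, which did not pass (adjusted p = 0.0776) but did without the low-count filter, on library totals, and without Asxl1-MT2/T618I library B.

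Sesn1 (chromosome 10, 41809935 to 41908424), a stress-induced inhibitor of mTORC1 signalling, was the member that fell in both backgrounds. It was at 17.1 to 23.4 CPM in Empty/Empty, 12.1 to 14.4 in Empty/T618I, 19.9 to 25.4 in Asxl1-MT2/Empty and 12.6 to 17.4 in Asxl1-MT2/T618I, so that the T618I libraries lay below those without it in each background. It fell by 0.64 ± 0.152 on the log2 scale with T618I alone (adjusted p = 0.00341, edgeR) and by 0.65 ± 0.151 in Asxl1-MT2 cells (adjusted p = 0.00181), and the interaction was -0.01 ± 0.215 (95% interval -0.47 to 0.44). A promoter window of Sesn1 holds a p53 decamer match, shown above, at a transcription start that lies within the gene as positioned here. Of the other members with such a match, Mdm2, Ccng1, Ppm1d, Gadd45a and Aen rose with T618I alone. The call of Aen was lost in 8 fits with a library left out. Trp53, Ei24 and Polk did not pass there. Btg2, Plk3, Gadd45g, Fas, Phlda3, Apaf1 and Ercc5 also rose there, with no match in their windows. In all, 14 of the 30 tested members rose, against 17.6% of all tested genes. Whether a match goes with a rise was not tested.

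Tigar, a phosphatase gene that diverts glucose from glycolysis, was at 37.5 to 40.1 CPM in Empty/Empty, 30.4 to 36.9 in Empty/T618I, 36.4 to 45.2 in Asxl1-MT2/Empty and 30.4 to 33.6 in Asxl1-MT2/T618I, and fell with T618I in Asxl1-MT2 cells by 0.38 ± 0.105 (adjusted p = 0.00716, edgeR). Fdxr, which encodes mitochondrial ferredoxin reductase, was at 18.4 to 20.8 CPM in Empty/Empty, 18.5 to 23.0 in Empty/T618I, 19.5 to 22.6 in Asxl1-MT2/Empty and 16.0 to 19.5 in Asxl1-MT2/T618I. Its call in the same comparison (-0.31 ± 0.123, adjusted p = 0.0469) was lost in 9 of the 12 fits with a library left out (edgeR adjusted p up to 0.185), held without Asxl1-MT2/Empty C, Asxl1-MT2/T618I C or Empty/T618I A, and was lost in DESeq2. Dcxr, a sugar reductase gene, was at 7.75 to 10.7 CPM in Empty/Empty, 7.93 to 9.04 in Empty/T618I, 10.1 to 13.1 in Asxl1-MT2/Empty and 7.86 to 12.2 in Asxl1-MT2/T618I and passed in no comparison. Gdf15, a secreted stress cytokine gene, had 9, 7, 8 and 13 summed counts in the 4 groups, in the order given for Plk2, and was not tested.

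**Figure D3:**
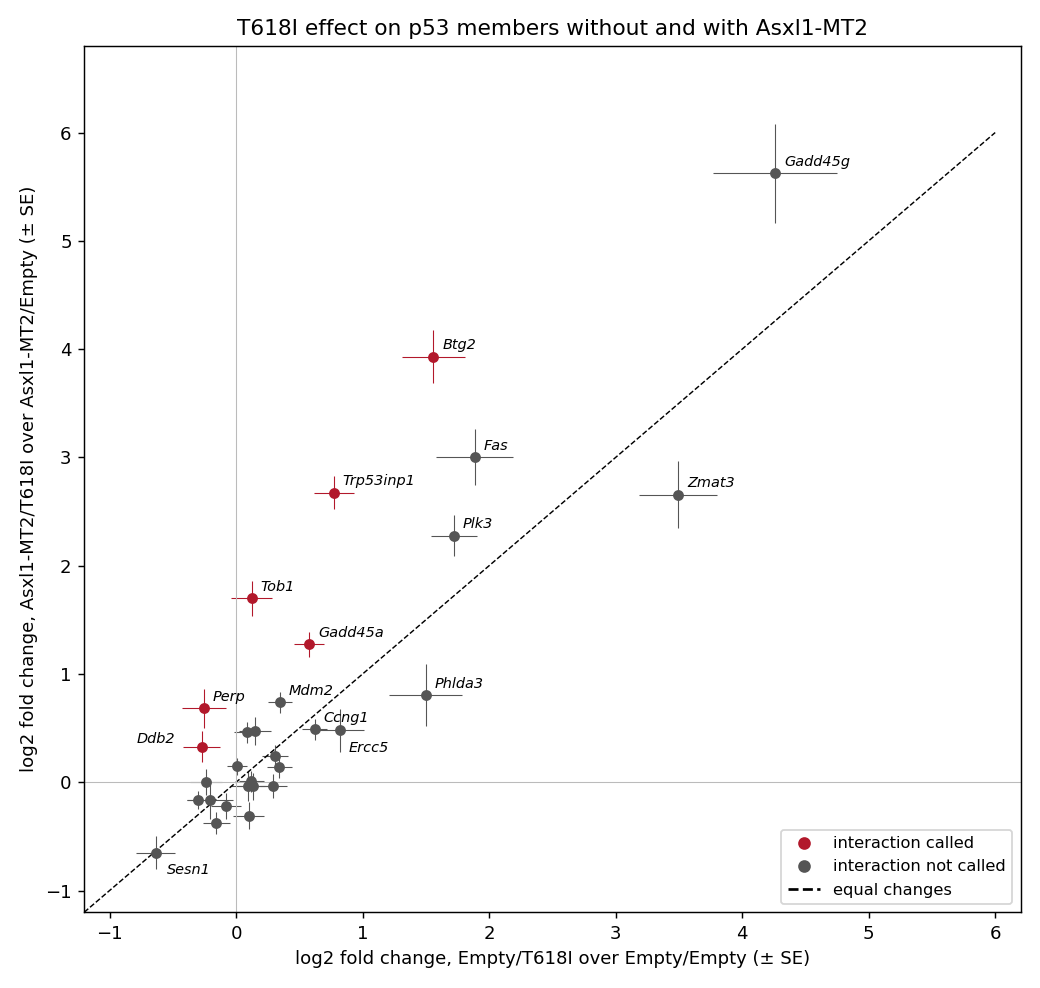
Log2 fold change with T618I without Asxl1-MT2 (horizontal axis) and with it (vertical axis) for the 30 tested members, with bars of 1 SE and a dashed line of equal change; red points passed in the interaction test. Btg2, Trp53inp1 and Tob1 lie farthest above the line among the red points, Sesn1 lies on it, and Zmat3 and Phlda3 lie below it without passing.

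The 8 members also known as growth factor or stress response genes were counted apart. Of the 6 of them that were tested, 4 rose with T618I alone, 5 rose with T618I in Asxl1-MT2 cells and 5 rose when Asxl1-MT2 was added to T618I, with median log2 fold changes of 1.07, 1.99 and 0.77. Of the 24 other tested members, 10 rose and 2 fell, 9 rose and 3 fell, and 6 rose and 1 fell in these comparisons, with medians of 0.13, 0.20 and -0.07. On library totals the last of these counts was 4 and 8. In the interaction 3 of the 6 and 3 of the 24 passed, all positive, which is 50% and 12.5% against 19.6% of all tested genes. In the comparisons, in the order given, 66.7%, 83.3% and 83.3% of the 6 were called in either direction. For the 24 the shares were 50%, 50% and 29.2%, and for all tested genes 33.5%, 49.8% and 43.9%. No test compared the subsets.

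Immediate early genes, which growth factors switch on within minutes, were mostly higher with T618I as well. Of 13 tested, 9 rose with T618I alone, 11 rose with T618I in Asxl1-MT2 cells, and 8 rose and 1 fell when Asxl1-MT2 was added to T618I. In either direction that is 69.2%, 84.6% and 69.2% of the 13, against 33.5%, 49.8% and 43.9% of all tested genes. Single genes differed. Jun rose in all 3 comparisons, although its call with T618I alone did not hold when library C of Empty/T618I or library B of Empty/Empty was left out (edgeR adjusted p up to 0.0631). Fos, with means of 9.36 CPM for the empty vectors and 9.85 CPM for T618I alone, did not pass there. Egr1 was the gene that fell when Asxl1-MT2 was added to T618I, from 45.2 to 26.8 CPM. Jun, Fos and Egr1 were picked as examples after their values were seen. The summed level of the list was 204 to 242 CPM in Empty/Empty, 550 to 624 in Empty/T618I, 205 to 229 in Asxl1-MT2/Empty and 744 to 1002 in Asxl1-MT2/T618I.

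Genes of other cell types and states changed too. Of 12 mature neutrophil genes, 8 rose and 2 fell with T618I alone and 12 rose when Asxl1-MT2 was added to it. In either direction 83.3% and 100% of them were called, and of the monocyte genes below 50% and 87.5%. Of all tested genes, 33.5% and 43.9% were called in these comparisons. Their summed level was 1543 to 2478 CPM in Empty/Empty, 3766 to 4880 in Empty/T618I, 2074 to 2924 in Asxl1-MT2/Empty and 20114 to 28104 in Asxl1-MT2/T618I. Of 8 tested monocyte genes 3 rose and 1 fell with T618I alone, and 7 rose when Asxl1-MT2 was added to it, with a summed level of 497 to 597, 510 to 556, 535 to 718 and 917 to 1241 CPM in the same order of groups.

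Most mast cell and basophil genes rose with T618I. Of 14, 13 rose and 1 fell with T618I alone, and 7 fell and the other 7 did not pass when Asxl1-MT2 was added to T618I. In either direction that is 100% and 50% of the 14, against 33.5% and 43.9% of all tested genes. With Asxl1-MT2 alone 5 of the 14 fell, where 0.622% of all tested genes were called lower. Their summed level was 1507 to 1677 CPM in Empty/Empty, 3879 to 7246 in Empty/T618I, 1059.7 to 1128 in Asxl1-MT2/Empty and 3937 to 4361 in Asxl1-MT2/T618I, and their IgE receptor gene Fcer1a was at 0 in Empty/Empty. Of 7 tested megakaryocyte and erythroid genes, 5 rose and 1 fell with T618I alone, and 5 fell and the other 2 did not pass when Asxl1-MT2 was added. In either direction 85.7% and 71.4% of the 7 were called, beside the same shares of all tested genes. Their summed level was 107 to 127, 255 to 352, 82.9 to 92.4 and 162 to 214 CPM in that order of groups. Gata1, a transcription factor gene of both lineages, rose with T618I alone from 4.95 to 47.4 CPM, while the globin genes Hba-a1 and Hbb-bt were at 0 in all 12 libraries.

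Of 7 lymphoid genes 3 were tested, and 1 rose and 2 fell with T618I alone, where 33.5% of all tested genes were called. Il7r, the interleukin 7 receptor gene, rose from 0.0344 CPM in Empty/Empty to 69.3 in Empty/T618I, and Nkg7, a gene of cytotoxic cells, fell from 124 to 34.6 CPM. The T cell gene Cd3e was at 0 in all 12 libraries. The summed level of the 7 was 111 to 147, 78.6 to 125, 168 to 195 and 82.6 to 97.4 CPM. Of 5 stromal and endothelial genes 2 were tested, and 1 rose and 1 fell with T618I in Asxl1-MT2 cells, where 49.8% of all tested genes were called. Their summed level of 200.1 to 341 CPM over all libraries was mostly Pecam1, which blood cells also express, and the endothelial gene Cdh5 was at 0 throughout. In bulk RNA, fewer cells of a type and less RNA per cell cannot be told apart, and the part of these cell types and states in the results for the p53 genes was not tested.

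Further p53 targets outside the 33, from a companion list, were counted in the same way. Of 25 listed, 20 were tested. With T618I alone 8 rose and 4 fell, 10 rose and 3 fell when Asxl1-MT2 was added to T618I (9 and 6 on library totals), and 13 rose and 3 fell with T618I in Asxl1-MT2 cells. In the interaction 9 were positive and 0 negative. In the order given, 60%, 65%, 80% and 45% of the 20 were called in either direction, against 33.5%, 43.9%, 49.8% and 19.6% of all tested genes. With Asxl1-MT2 alone 0 passed in edgeR or DESeq2, and 3 were higher and 3 lower at an unadjusted p under 0.05 in edgeR. Cdkn1a, the cell cycle inhibitor p21, was at 35.8, 28.1 and 24.2 CPM in Empty/Empty libraries A, B and C, 97.3, 93.9 and 103 in Empty/T618I, 32.4, 30.5 and 33.0 in Asxl1-MT2/Empty and 126, 126 and 113 in Asxl1-MT2/T618I. All T618I libraries lay above all others. It rose by 1.74 ± 0.111 with T618I alone (adjusted p = 2.57e-09, edgeR) and by 1.93 ± 0.110 in Asxl1-MT2 cells, with an interaction of 0.19 ± 0.155 (95% interval -0.14 to 0.52). The rise when Asxl1-MT2 was added to T618I (0.31 ± 0.103, adjusted p = 0.0208) was lost without Empty/T618I A or B or Asxl1-MT2/T618I A or B, and on library totals (edgeR adjusted p up to 0.137).

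Bax, the pore-forming death effector, was at 61.9 to 67.3 CPM in Empty/Empty, 89.7 to 106 in Empty/T618I, 52.99 to 66.0 in Asxl1-MT2/Empty and 81.4 to 94.4 in Asxl1-MT2/T618I, and rose by 0.62 ± 0.0963 with T618I alone and 0.51 ± 0.0970 in Asxl1-MT2 cells. Tnfrsf10b, the mouse TRAIL receptor gene, rose by 1.35 ± 0.282 with T618I alone. Dram1, a lysosomal autophagy gene, and Tap1, a peptide transporter gene, fell by 0.94 ± 0.179 and 0.89 ± 0.0813 with T618I alone, and rose by 2.08 ± 0.168 and 0.50 ± 0.0818 when Asxl1-MT2 was added to T618I. Notch1, the receptor gene, rose by 0.87 ± 0.130 with T618I alone and 2.07 ± 0.130 in Asxl1-MT2 cells, with an interaction of 1.197 ± 0.182 (adjusted p = 0.000210, edgeR). Sesn2, a paralogue of Sesn1, rose in both backgrounds, by 0.54 ± 0.140 and 1.69 ± 0.140, where Sesn1 fell. Trp53i11, Casp1 and Blcap rose by 1.21 ± 0.138, 0.92 ± 0.0913 and 0.84 ± 0.121 when Asxl1-MT2 was added to T618I.

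Genes that regulate p53 were mixed. Of 20 listed, 19 were tested, and 4 rose and 0 fell with T618I alone, 4 rose and 4 fell when Asxl1-MT2 was added to T618I (1 and 8 on library totals), and 6 rose and 3 fell with T618I in Asxl1-MT2 cells (5 and 7 on library totals). In the order given, 21.1%, 42.1% and 47.4% of the 19 were called, against 33.5%, 43.9% and 49.8% of all tested genes, so that no share was above that of all genes. In the interaction 1 was positive and 2 negative. With Asxl1-MT2 alone 0 passed in edgeR, where 1 was lower at an unadjusted p under 0.05. DESeq2, at an adjusted p under 0.05, called 1 lower. The kinase genes Atm and Atr, which signal DNA damage to p53, fell by 0.70 ± 0.155 and 0.79 ± 0.142 when Asxl1-MT2 was added to T618I, and neither passed with T618I alone. Prkdc, a further such kinase gene, fell by 0.86 ± 0.147 with T618I in Asxl1-MT2 cells. Cdkn2a, whose Arf product blocks Mdm2, was low at 1.49 to 1.91 CPM in Empty/Empty, 3.34 to 6.57 in Empty/T618I, 0.198 to 0.798 in Asxl1-MT2/Empty and 1.14 to 1.67 in Asxl1-MT2/T618I. It rose by 1.44 ± 0.333 with T618I alone and fell by 1.61 ± 0.342 when Asxl1-MT2 was added. Trp53bp2, a p53 cofactor gene, rose by 0.82 ± 0.119 and 1.04 ± 0.120 with T618I without and with Asxl1-MT2. Ep300 and Crebbp, the acetyltransferase genes, rose by 0.37 ± 0.0955 and 0.27 ± 0.0998 with T618I alone, the call of Crebbp being lost in 6 of the 12 fits with a library left out (letters A and B of Empty/T618I, A and B of Asxl1-MT2/Empty, and A and C of Empty/Empty, with edgeR adjusted p up to 0.151). Rchy1, a ubiquitin ligase gene that targets p53, rose by 0.98 ± 0.133 with T618I in Asxl1-MT2 cells, with an interaction of 0.73 ± 0.191 (adjusted p = 0.0122).

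**Figure D4:**
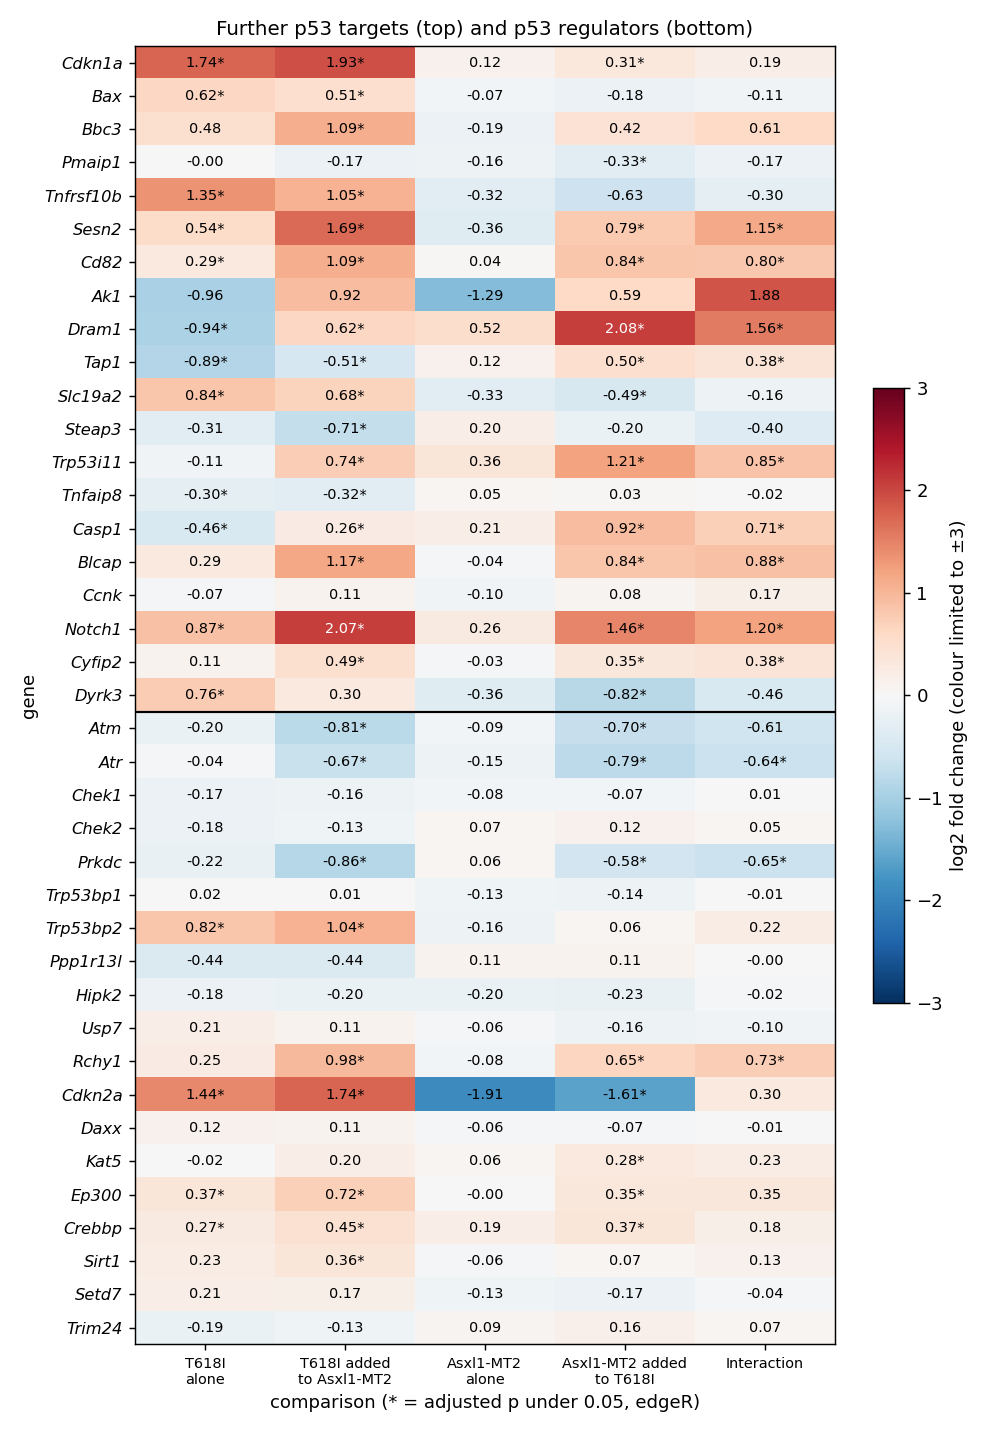
Log2 fold change of 20 further p53 targets (above the line) and 19 genes that regulate p53 (below it) in the 4 comparisons and the interaction (columns), with the colour scale limited to ±3 and an asterisk at an adjusted p under 0.05 in edgeR. Cdkn1a and Notch1 are called higher in both T618I columns, Atm, Atr and Prkdc are called lower in both columns that end in Asxl1-MT2/T618I, and the column for Asxl1-MT2 alone holds no asterisk.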

How the data were processed

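The authors deposited 1 table of raw counts per gene symbol for 12 libraries. Trimmomatic, STAR, DESeq2 and the mm10 build are named, per the submitters' processing notes. The counter, annotation and strand setting are not given in the sources used here, so counts of genes that overlap on opposite strands are uncertain: Plk3, Gadd45a, Rb1, Ddb2, Ei24, Polk, Rrm2b and Tigar.

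Columns carry the group and a letter, and nothing links letters to the numbers in the titles. Symbols passing filterByExpr of edgeR 4.0.16 (R 4.3.3) were kept, 11578 of 24411. Counts were scaled with TMM factors (0.919 to 1.03, lowest in Asxl1-MT2/T618I), and the 12 libraries entered 1 quasi-likelihood model with 4 group means. Benjamini-Hochberg adjustment ran over all tested genes, with calls at 0.05. CPM uses the scaled library sizes. The fit was tested on simulated data. Replicates differed beyond counting noise, and each was kept as its own library. Alternatives were DESeq2 1.42.0, other scalings, no filter, a block by letter, only the groups compared, each library left out, and each Empty/Empty library moved to Empty/T618I.

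The members and all lists were chosen with earlier results of these data known. Values of each library are given for Trp53 and Mdm2, for members called in the interaction and for the 6 called members with the largest change in each other comparison; of other genes, Cdkn1a and Bax are named, along with the 4 called genes with the largest change per comparison in each companion list. Gene positions are from GENCODE M21.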

Additional observations from a re-analysis of the deposited data

Results flagged for a closer look

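For 6 members the effect of T618I differed between the backgrounds in the interaction test (edgeR, adjusted over all tested genes), each with a positive difference, the effect in Asxl1-MT2 cells minus that without it. These are 20% of the 30 tested members. Of all tested genes 19.6% were called in either direction and 14.1% with a positive difference. On the log2 scale the difference was 2.37 for Btg2, 1.90 for Trp53inp1, 1.58 for Tob1, 0.938 for Perp, 0.696 for Gadd45a and 0.601 for Ddb2. The calls behind these differences were not alike. For Btg2, Trp53inp1 and Gadd45a, T618I gave a rise in both backgrounds. Tob1 and Perp rose in Asxl1-MT2 cells, and neither passed with T618I alone. Both had their lowest group means in Asxl1-MT2/Empty, at 6.61 ± 0.386 and 29.2 ± 4.76 CPM (SD, n = 3). The same group held the lowest means of Btg2 and Gadd45a, at 1.75 ± 0.494 and 23.1 ± 2.34 CPM. The part of these levels in the differences was not tested. For Ddb2 the T618I effects were -0.27 ± 0.146 without and 0.33 ± 0.145 with Asxl1-MT2, neither of which passed, and its interaction was lost in 10 of the 12 fits with a library left out.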

How the results depend on the processing

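The number of members called with T618I alone was 16, and it was 0, 0 and 5 when Empty/Empty A, B and C in turn were moved to the Empty/T618I group. The number with Asxl1-MT2 alone was 1, and it was 0, 0 and 0 under the same 3 changes. Every Empty/Empty library lay far below the T618I libraries for Socs3. Without 1 library at a time, the counts ran from 14 to 16 for T618I alone, from 0 to 2 for Asxl1-MT2 alone (0 without Asxl1-MT2/Empty A or B, and 2 without Empty/Empty C, where Tob1 was added), from 11 to 13 for Asxl1-MT2 added to T618I, from 15 to 19 for T618I in Asxl1-MT2 cells and from 5 to 7 for the interaction. With the replicate block by column letter, edgeR called 16, 1, 13, 18 and 8 members in that order, against 16, 1, 12, 17 and 6 without it. The block added Trp53 (lower) for Asxl1-MT2 added to T618I, Apaf1 for T618I in Asxl1-MT2 cells, and Mdm2 and Rb1 (positive) in the interaction. Deviations of libraries with the same letter correlated over 0.1 in 7 of 18 pairs (r -0.0812 to 0.29), against 6 of 36 pairs with different letters (r -0.309 to 0.155), and 8 of 12 libraries correlated best with their own letter, a hint of shared letters from the data. The letters were not taken as pairing, since no label links them and not every pair correlated over 0.1. DESeq2 called 16, 1, 13, 15 and 5. Leaving aside the changed label, 13 of 16, 0 of 1, 9 of 12, 15 of 17 and 5 of 6 calls held in every setting run, and no call changed sign. Eda2r, Gdf15 and Plk2 had too few counts for a test, and differences in them were not detectable at this depth.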

Other observations

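The 3 libraries of a group were not alike in these genes. In Empty/T618I, library A was the highest in 17 of 30 tested members and the lowest in 5. In Asxl1-MT2/Empty, library B was the highest in 7 and the lowest in 15. In Asxl1-MT2/T618I, library A was the highest of the 3 in 13 of 30 tested members and the lowest in 12. Those highest in it included Fas, Gadd45a, Gadd45g, Plk3, Tob1, Trp53inp1 and Mdm2, and those lowest in it included Perp, Zmat3, Phlda3, Ddb2, Aen and Trp53. Library C was the lowest of the 3 in 14 members, among them Btg2, Fas and Trp53inp1. The summed level of the mature neutrophil genes was 28104, 22933 and 20114 CPM in libraries A, B and C. Its part in the order of the libraries was not tested.

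Per kilobase of exon, Gadd45a was at 22.1 CPM in Empty/T618I and at 31.6 CPM in Asxl1-MT2/T618I, where Trp53 and Ccng1 alone of the members stood higher. Eda2r, Plk2 and Gdf15 were the lowest members with T618I in both backgrounds, and Zmat3, despite its large fold change, came next in Asxl1-MT2/T618I at 1.13 CPM per kb.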
